A study of Mus musculus with 2 samples.

Results

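The genes described are 40 outputs of MAP kinase signalling: immediate-early transcription factors of the AP-1 and EGR families, dual-specificity phosphatases (DUSPs), Sprouty and Spred inhibitors, the PEA3 group of ETS factors and related genes that ERK induces. They were chosen by symbol, and 41 of the 27376 rows of the count table carry one of these symbols. Dusp8 stands on 2 rows, of which the shorter, nested one held 0 reads in both libraries, so the longer gene model was used for it. RNA was sequenced from fresh prostate tumour tissue of mice 16 months old, with 1 library of each of 2 genotypes, named Bcat_Only and Met_Bcat. As far as the names state, both genotypes carry altered beta-catenin and the second adds MET, the receptor tyrosine kinase for hepatocyte growth factor. Per the file headers the Bcat_Only library carries an exon allele of beta-catenin and a PB Cre driver in its name, and neither the labels nor the heading of the other library describes the MET allele, its promoter or the number of animals behind a library. The comparison addresses how adding MET to altered beta-catenin changes tumour expression. With 1 library per genotype there is no replicate check and no test: every difference below is between these libraries, and every interval is a 95% interval for counting error only.

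MET, like other receptor tyrosine kinases, activates RAS and then the kinase cascade of RAF, MEK and ERK. Active ERK switches on immediate-early genes such as Fos and Egr1 within minutes, without new protein synthesis, and somewhat later genes whose products shut the cascade down: DUSPs remove the phosphates from ERK, JNK and p38, Sprouty and Spred proteins act on RAS and RAF, and Errfi1 blocks the EGF receptor. Levels of the feedback genes are often read as a record of how active the cascade has been, while the immediate-early genes also answer to serum, stress, cytokines and tissue handling.

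In total 19301062 reads were counted over genes in Bcat_Only and 20117724 in Met_Bcat. Values are given as CPM, the count scaled to the library size after adjustment by TMM, not to these totals. The adjusted sizes were 18423600 for Bcat_Only and 21075872 for Met_Bcat. Levels of different genes are compared only as CPM per kilobase of exon. The libraries differed widely in marker genes of cell types. The sums over markers were 23166 CPM in Bcat_Only and 949.6 CPM in Met_Bcat for 8 fibroblast genes, 4570 and 121 CPM for 8 neutrophil genes, 1498 and 311 CPM for 6 macrophage genes, 548 and 46.0 CPM for 6 smooth muscle genes, and 403 and 203 CPM for 5 endothelial genes. By the 2-fold rule explained below, 7 of 8, 8 of 8, 6 of 6, 6 of 6 and 4 of 5 of these markers were lower in Met_Bcat, and the neutrophil gene Elane was at 0 there. The 13 luminal epithelial markers, the defining genes of the labelled tissue, were all detected in both libraries and summed to 3958 and 6492 CPM, with 4 higher and 1 lower. Summed basal markers stood at 387 and 1239 CPM, with 4 of 5 higher and 1, Krt15, lower at 10.9-fold. B and plasma cell markers stood at 452 and 16.1 CPM, with 4 of 4 lower, and T and NK cell markers at 37.0 and 27.0 CPM, with 1 of 5 lower. Nerve markers summed to 11.3 and 3.46 CPM, and the 5 seminal vesicle genes to 6826 and 4.75 CPM with Svs6 at 0 in Met_Bcat. Many of the MAPK output genes are expressed by these cell types as well as by epithelium. Fewer cells of a type and less RNA per cell cannot be told apart in whole tissue, and the part of the cell makeup in the differences below was not tested.

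Sequences are shown for the 5 members whose promoters hold a full cAMP response element and for Egr2, which has the CArG box bound by serum response factor. Both are well known elements through which immediate-early genes are switched on. RefSeq promoters on GRCm38.p6, from 250 bases before to 50 after each start, were at hand for 31 of the 40 members, with 41 promoters among them. The element TGACGTCA, which reads the same on both strands, was present in promoters of 5 members, Dusp1, Errfi1, Btg2, Maff and Dusp8. It was found in 12.2% of the member promoters and in 1.79% of all 32851 promoters of the same length. Each stretch below lies before the start site and overlaps no annotated exon, and capitals mark the element.
Dusp1: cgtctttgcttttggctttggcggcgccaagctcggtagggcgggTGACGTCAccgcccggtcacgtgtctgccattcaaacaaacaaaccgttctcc
Errfi1: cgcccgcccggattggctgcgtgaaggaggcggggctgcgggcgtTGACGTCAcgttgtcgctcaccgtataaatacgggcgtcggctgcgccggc
Btg2: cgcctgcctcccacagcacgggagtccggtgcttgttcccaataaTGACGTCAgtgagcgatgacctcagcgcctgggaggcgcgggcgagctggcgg
Maff: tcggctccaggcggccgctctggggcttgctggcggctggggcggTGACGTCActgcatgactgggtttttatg
Dusp8: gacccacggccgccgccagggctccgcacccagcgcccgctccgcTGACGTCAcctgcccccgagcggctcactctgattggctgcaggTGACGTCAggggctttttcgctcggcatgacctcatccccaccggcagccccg
These stretches lie at chr17:26508563-26508660 (minus strand) for Dusp1, chr4:150854974-150855069 (plus) for Errfi1, chr1:134079269-134079366 (minus) for Btg2, chr15:79347446-79347519 (plus) for Maff and chr7:142095295-142095436 (minus) for Dusp8. The element begins 143 bases before the start in Dusp1, 51 in Errfi1, 166 in Btg2 and 29 in Maff, and Dusp8 has a pair of them, at 107 and 63 bases. For Errfi1 and Maff the element lies in 1 of several promoters.

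The CArG box (searched by its usual consensus, which is the same on both strands) was found in promoters of 3 members, Egr2, Dusp5 and Zfp36. The 9 members without a promoter at hand were not searched, nor were bases more than 250 before a start. Absence from this list therefore does not mean that a gene lacks the box. That was 14.6% of the member promoters, 4 of them promoters of Egr2 that share 2 sites, against 1.63% of all promoters. Only the stretches of Egr2 are shown, since those of Dusp5 and Zfp36 overlap annotated untranslated exons. Capitals mark the box.
Egr2 distal site: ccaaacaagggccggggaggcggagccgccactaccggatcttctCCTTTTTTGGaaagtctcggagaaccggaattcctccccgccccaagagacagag
Egr2 proximal site: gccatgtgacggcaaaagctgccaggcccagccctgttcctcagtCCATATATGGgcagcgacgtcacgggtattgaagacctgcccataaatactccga
They lie on the plus strand at chr10:67537449-67537548 and chr10:67537752-67537851, each 72 bases before one of the annotated starts. The AP-1 site TGANTCA was found in a promoter of 1 member, Emp1, against 7.81% of all promoters, and the ETS core CCGGAAG, on either strand, in that of 1 member, Zfp36, against 8.86%. Such matches describe letters in a window and say nothing of binding.

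Of the 40 members, 34 stayed within the 2-fold rule defined next, as did 11617 of all 14354 genes considered. Dusp1, Dusp4 and Errfi1, among the 6 that passed it, encode feedback inhibitors. Most members of that kind, all Sprouty and Spred genes included, stayed within the rule. All 40 had a mean of at least 1 CPM, the minimum for a gene to be considered. Egr3 had 0.814 CPM in Bcat_Only and 1.33 CPM in Met_Bcat, so it passed only through the library in which it was higher. The rule for calling a gene higher or lower asked for its whole interval to lie at or beyond 2-fold. By this rule 1 member, Egr1, was higher in Met_Bcat (2.5%, where 4.42% of all 14354 genes considered were higher), and 5 members, Dusp1, Etv1, Emp1, Dusp4 and Errfi1, were lower (12.5%, where 14.6% of all genes were lower). Neither share was above the background. Of all genes past the rule 76.8% were lower, a share that was 88.4% when the median of the luminal markers was set to no difference. There 0 members were higher and 9 lower, with 376 and 2855 of all genes. That scaling moves every log2 ratio by -0.43 and turns the sign of 8 members with small ratios, Atf3, Dusp7, Dusp10, Jun, Jund, Nr4a1, Spred2 and Spred3. It rests on markers that differ among themselves. By TMM the log2 ratios of the 13 luminal genes, with a pseudocount, ran from -1.125 to 4.656 around a median of 0.432. At 4-fold the members numbered 0 higher and 1 lower, Dusp1 (1.75% and 7.57% of all genes), and by the ratio alone, whatever its interval, 1 was 2-fold higher and 6 were 2-fold lower (6.38% and 18% of all genes), Spry1 being the sixth. The interval lay above no difference for 10 members and below it for 21, while it spanned no difference for 9. Among all genes 37.8% lay above and 36% below. The median log2 ratio of CPM plus 0.5, Met_Bcat over Bcat_Only, was -0.24 over the members, with quartiles of -0.60 and 0.21, and 0.03 over all genes, with quartiles of -0.53 and 0.33. The ratio was below 1 for 26 of 40 members and for 47.7% of all genes.

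**Figure D1:**
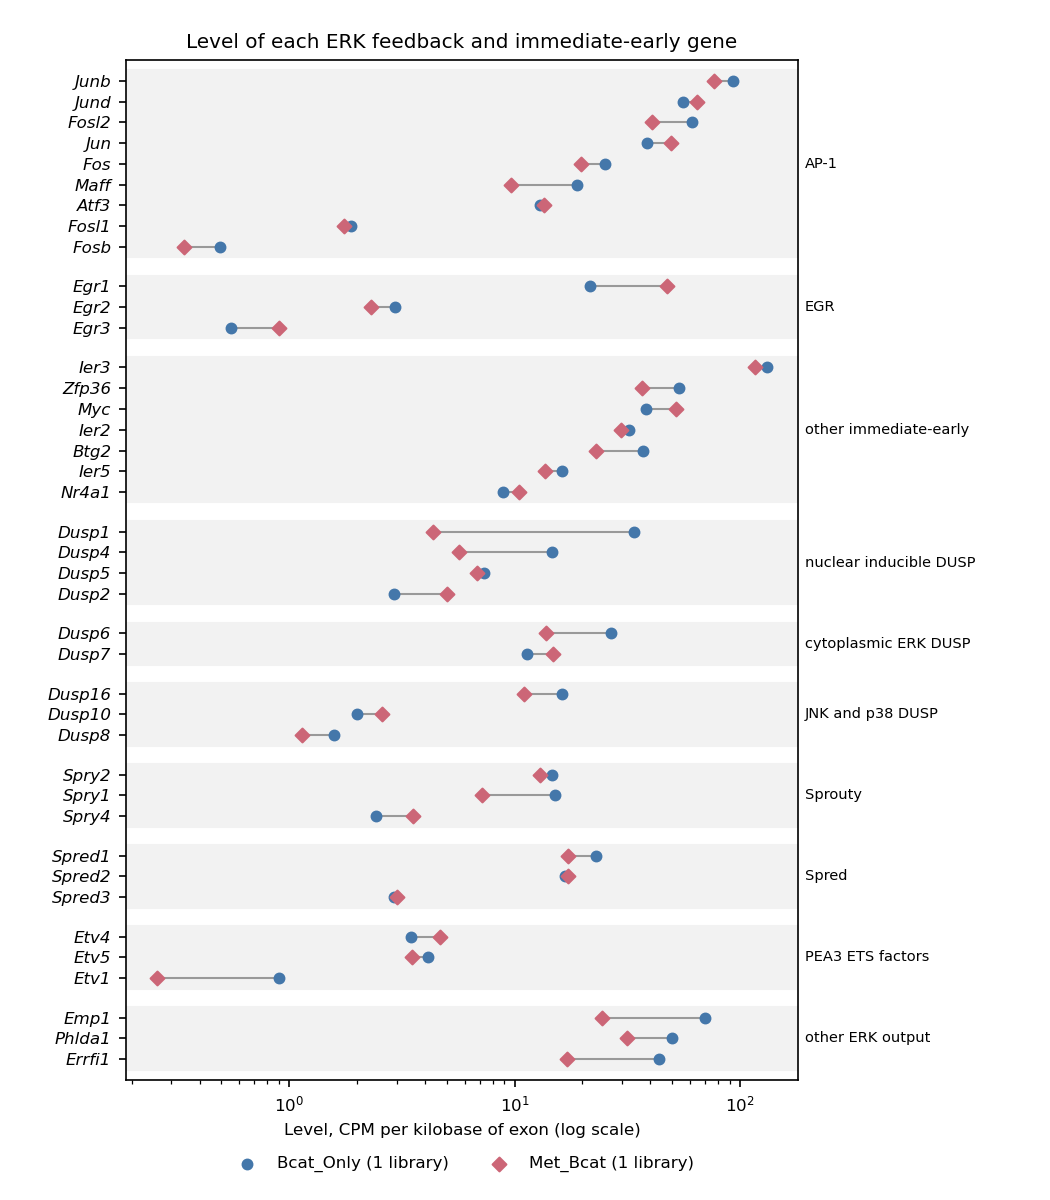
Level of each member in the Bcat_Only library (circles) and the Met_Bcat library (diamonds), in CPM per kilobase of exon on a log axis, grouped by role. Ier3 is the most abundant member in both libraries, and Dusp1 has the longest line between its points, from 34.0 down to 4.36.

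The FOS and JUN proteins pair to form AP-1, the transcription factor most closely tied to growth factor signalling. None of the 9 AP-1 members passed the 2-fold rule in either direction, where 4.42% of all genes were higher and 14.6% lower. Their median log2 ratio was -0.28. Fosl2, which encodes the FOS-like protein FRA2, was the most abundant FOS gene per length, with 6590 reads (358 CPM) in Bcat_Only and 5034 reads (239 CPM) in Met_Bcat, 1.498-fold lower (1.44 to 1.55). Fos itself had 1089 reads (59.1 CPM) and 980 reads (46.5 CPM), 1.27-fold lower (1.17 to 1.39). Within the FOS family, Fosl2 held 69% of the summed level per length in Bcat_Only and 65.1% in Met_Bcat, and Fos 28.4% and 31.6%. The other two members, Fosl1 and Fosb, were weak: 59 and 63 reads for Fosl1, 34 and 27 reads for Fosb, and both intervals spanned no difference. Fosl1, whose product FRA1 is stabilised by ERK, overlaps Ccdc85b on the opposite strand, which had 274 and 420 reads.

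The JUN genes were more abundant than the FOS genes in both libraries, at a summed 188 and 191 CPM per kilobase against 88.6 and 62.7 for FOS. Junb had 3112 reads (169 CPM) in Bcat_Only and 2932 reads (139 CPM) in Met_Bcat, a ratio of 0.82 (0.78 to 0.87). Jun went the other way, with 2264 reads (123 CPM) and 3341 reads (158.5 CPM), a ratio of 1.29 (1.22 to 1.36), and Jund stood at 162 and 185.5 CPM, a ratio of 1.15 (1.093 to 1.203), though both ratios are below 1 under the luminal scaling. Junb held 49.7% of the family's level per length in Bcat_Only and 40.3% in Met_Bcat, and Jun 20.5% and 26%. Relative to Junb, the level of Jund was 0.60 in Bcat_Only and 0.84 in Met_Bcat, a 1.39-fold difference (1.30 to 1.49) that does not depend on how libraries are scaled. Jun overlaps a gene on the opposite strand, BC042782, with 169 and 308 reads, and without the strand setting of the counting their reads cannot be separated with certainty.

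The AP-1 partners Maff and Atf3 differed from each other. Maff, a small Maf protein without an activation domain, had 736 reads (39.95 CPM) in Bcat_Only and 431 reads (20.5 CPM) in Met_Bcat. That is 1.95-fold lower, with an interval of 1.73 to 2.20 that spans the 2-fold line. Atf3, a stress-induced factor, had 25.7 and 26.7 CPM, with an interval for the ratio of 0.92 to 1.18.

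Egr1, a zinc-finger factor and one of the fastest ERK targets, was the only member counted as higher in Met_Bcat (ENSMUSG00000038418, mm9 chromosome 18, 35019477 to 35024638, plus strand). It had 1791 reads (97.2 CPM) in Bcat_Only and 4488 reads (213 CPM) in Met_Bcat, 2.19-fold higher (2.07 to 2.31). Its rank by level per length among the members moved from 17 to 6. Egr2 had 185 and 166 reads (10.0 and 7.88 CPM), a ratio of 0.78 (0.63 to 0.97). Egr3 had only 15 and 28 reads, a ratio of 1.63 whose interval of 0.84 to 3.29 includes both no difference and the ratio of Egr1. Egr1 held 86.1% of the family's level per length in Bcat_Only and 93.6% in Met_Bcat.

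Egr1 and Fos, which are commonly induced together, stood in different proportion in the libraries. The level per length of Egr1 was 0.86 times that of Fos in Bcat_Only and 2.40 times that of Fos in Met_Bcat, a 2.78-fold difference in the ratio (2.51 to 3.09). Against Egr2 the corresponding ratios were 7.34 and 20.5, a 2.79-fold difference (2.23 to 3.49). These proportions do not depend on library scaling, whereas the count of Egr1 as higher does: with the luminal markers set to no difference, Egr1 stood at a log2 ratio of 0.70 and did not meet the rule.

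**Figure D2:**
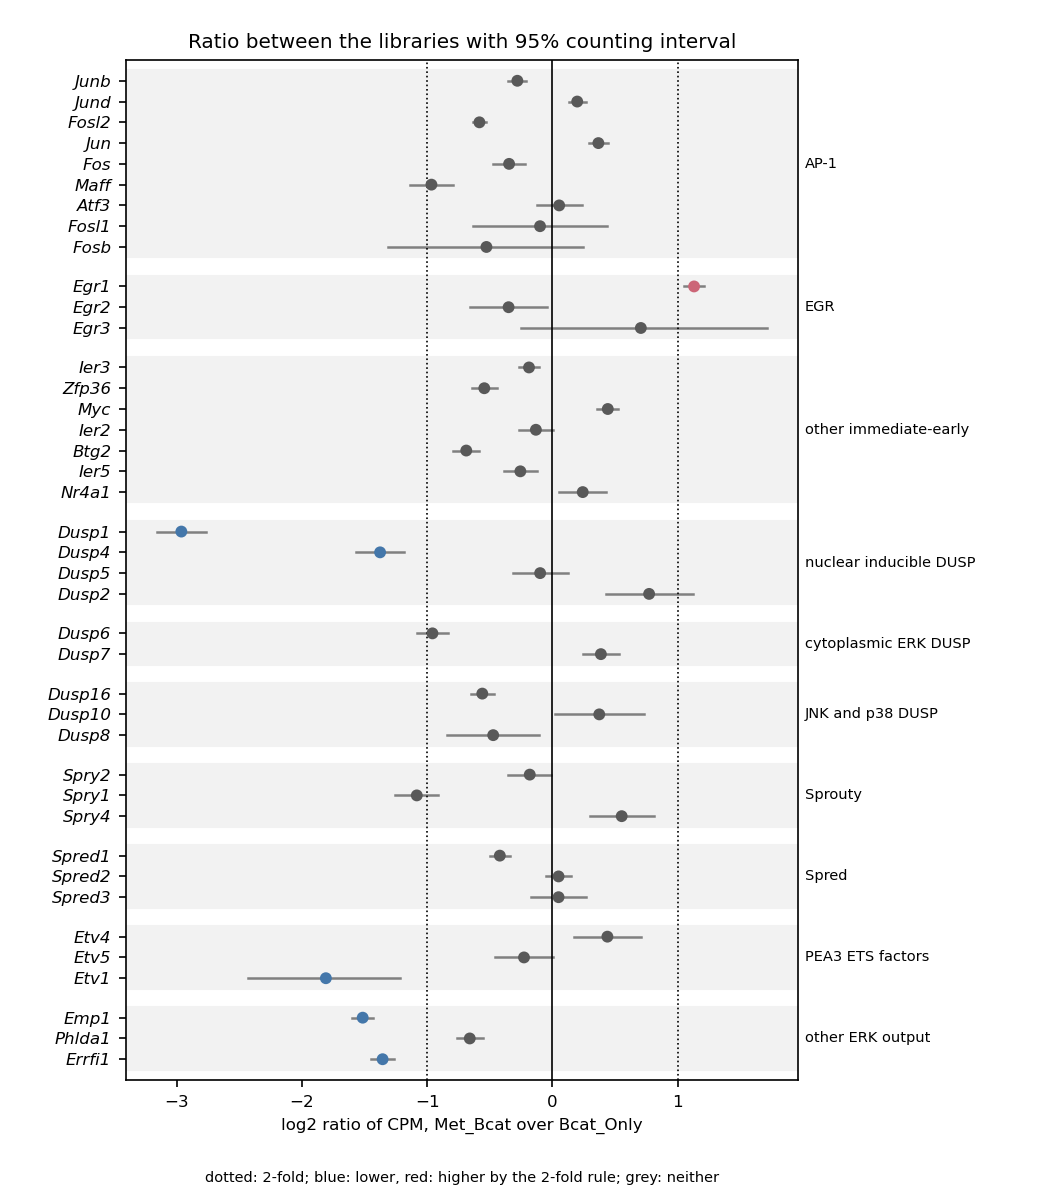
Log2 ratio of CPM, Met_Bcat over Bcat_Only, of each member with its 95% counting interval. Egr1 lies to the right of the dotted 2-fold line, Dusp1, Dusp4, Etv1, Emp1 and Errfi1 lie to the left of the other one with their whole intervals, and Spry1, Dusp6, Maff and the weakly expressed Fosb have intervals that cross it.

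The remaining immediate-early genes, Ier2, Ier3, Ier5, Nr4a1, Zfp36, Btg2 and Myc, all lay within the 2-fold rule, as did 11617 of all 14354 genes. Their median log2 ratio was -0.19. Ier3, a survival gene that is also induced by NF-kB, was the highest member per length in both libraries, at 133 and 116 CPM per kilobase (2762 and 2775 reads). Its place in the IER group was the same in both libraries, with 73.1% and 72.9% of the summed level per length, and the ratio of Ier3 to Ier2 was 4.09 and 3.94. The interval of the difference between these ratios, 0.86 to 1.07, includes none.

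The rest of this group went both ways. Myc, which encodes the growth-promoting transcription factor and is also a target of beta-catenin, had 1926 reads (104.5 CPM) in Bcat_Only and 2994 reads (142 CPM) in Met_Bcat, a ratio of 1.36 (1.28 to 1.44). Under the luminal scaling its log2 ratio was 0.010. Nr4a1, an orphan nuclear receptor, had 21.98 and 26.0 CPM, a ratio of 1.18 (1.04 to 1.35) that turns below 1 under the luminal scaling. Zfp36, whose product tristetraprolin destabilises cytokine and immediate-early messages, had 1779 reads (96.6 CPM) and 1396 reads (66.2 CPM), 1.46-fold lower (1.36 to 1.56). Btg2, an antiproliferative gene also induced by p53, had 1881 reads (102 CPM) and 1336 reads (63.4 CPM), 1.61-fold lower (1.501 to 1.729).

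Dusp1 had the largest ratio between the libraries of any member. The products of Dusp1, Dusp2, Dusp4 and Dusp5 are inducible and act in the nucleus, and 2 of these 4 were lower in Met_Bcat, where 14.6% of all genes were. Dusp1, which acts on p38 and JNK as well as ERK (ENSMUSG00000024190, mm9 chromosome 17, 26642535 to 26645464, minus strand), had 1690 reads (91.7 CPM) in Bcat_Only and 248 reads (11.8 CPM) in Met_Bcat, 7.80-fold lower (6.82 to 8.94). Its log2 ratio with the pseudocount lay below those of all but 4.28% of genes considered. Dusp4 (ENSMUSG00000031530, mm9 chromosome 8, 35870351 to 35882948, plus strand) had 744 reads (40.4 CPM) and 328 reads (15.6 CPM), 2.59-fold lower (2.28 to 2.96). Of the other two, Dusp5, whose product is specific for ERK, had 18.1 and 16.9 CPM with an interval for the ratio of 0.80 to 1.09. Dusp2 had 108 and 211 reads (5.86 and 10.0 CPM), a ratio of 1.71 (1.35 to 2.17) that points the other way.

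Dusp6 and Dusp7 encode cytoplasmic phosphatases that act on ERK, and Dusp6 is the classic readout of ERK activity. Dusp6 had 1381 reads (74.96 CPM) in Bcat_Only and 813 reads (38.6 CPM) in Met_Bcat, 1.94-fold lower, with an interval of 1.78 to 2.12 that spans the 2-fold line. Dusp7 had 699 reads (37.9 CPM) and 1046 reads (49.6 CPM), a ratio of 1.31 (1.19 to 1.44) that turns below 1 under the luminal scaling. The level of Dusp7 per length was 0.42 times that of Dusp6 in Bcat_Only and 1.07 times in Met_Bcat, a 2.54-fold difference (2.229 to 2.898).

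Of the phosphatases that prefer JNK and p38, Dusp16 had 124 and 84.4 CPM, 1.48-fold lower (1.38 to 1.57), Dusp8 had 142 and 117 reads, and Dusp10 had 112 and 166 reads with a ratio of 1.30 (1.013 to 1.662), also below 1 under the luminal scaling. None passed the rule, where 4.42% of all genes were higher and 14.6% lower. Summed over the 9 DUSP members the level per length was 117 in Bcat_Only and 65.2 CPM per kilobase in Met_Bcat. Dusp1 was the first of the 9 in Bcat_Only with 29.1% of the sum and the seventh in Met_Bcat with 6.69%, where Dusp7 was first with 22.7%, followed by Dusp6 with 21.2% and Dusp16 with 16.9%.

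**Figure D3:**
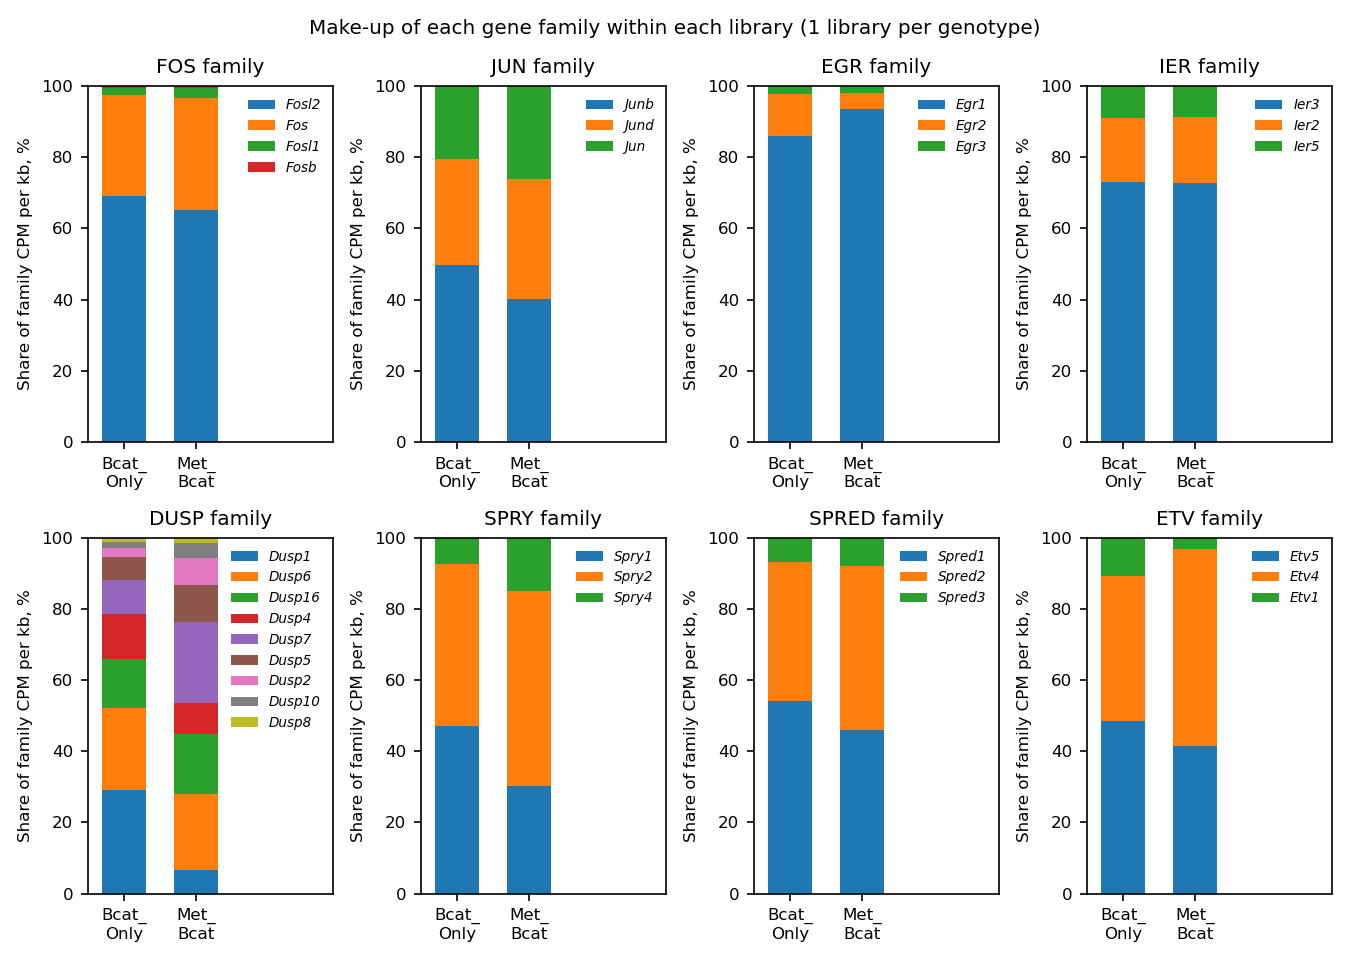
Share of each gene in the summed CPM per kilobase of its family, in percent, for the Bcat_Only and the Met_Bcat library. The DUSP bars differ most, with Dusp1 at 29.1% and 6.69% and Dusp7 at 9.67% and 22.7%, whereas the IER bars are nearly the same.

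Sprouty proteins hold back RAS activation by receptor tyrosine kinases. None of the 3 genes passed the rule, where 4.42% of all genes were higher and 14.6% lower. The 3 Sprouty genes spread in both directions. Spry1 had 813 reads (44.1 CPM) in Bcat_Only and 439 reads (20.8 CPM) in Met_Bcat, 2.12-fold lower with an interval of 1.88 to 2.38. Spry2 had 30.6 and 27.0 CPM, a ratio of 0.88 (0.78 to 0.99), and Spry4 had 205 and 344 reads (11.1 and 16.3 CPM), a ratio of 1.47 (1.23 to 1.75). With the luminal scaling the log2 ratio of Spry4 was 0.121. The level of Spry4 relative to Spry1 was 0.16 in Bcat_Only and 0.50 in Met_Bcat, a 3.11-fold difference (2.51 to 3.85), and the most abundant of the family was Spry1 in Bcat_Only and Spry2 in Met_Bcat.

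Spred proteins carry neurofibromin to RAS at the membrane. Spred1 had 2886 reads (157 CPM) and 2467 reads (117 CPM), 1.34-fold lower (1.27 to 1.41). The intervals of Spred2, at 77.5 and 80.2 CPM, and of Spred3, at 17.5 and 18.1 CPM, spanned no difference.

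The PEA3 factors are ETS proteins that ERK and FGF signalling induce, and their fusions drive a subset of human prostate cancers. Their summed level per length was 8.48 CPM per kilobase in Bcat_Only and 8.47 in Met_Bcat, but its parts differed. Etv1 (ENSMUSG00000004151, mm9 chromosome 12, 39505967 to 39594802, plus strand) had 98 reads (5.32 CPM) in Bcat_Only and 32 reads (1.52 CPM) in Met_Bcat, 3.50-fold lower (2.33 to 5.40). Etv4 had 198 and 307 reads (10.7 and 14.6 CPM), a ratio of 1.35 (1.13 to 1.63), and Etv5 had 311 and 304 reads, with an interval of 0.727 to 1.004. The log2 ratio of Etv4 was 0.007 under the luminal scaling. The level of Etv4 relative to Etv5 was 0.84 and 1.33, a 1.59-fold difference (1.24 to 2.03). All 3 genes were weak beside most other members, so their intervals are wide.

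All 3 of the remaining ERK outputs had ratios below 1, as did 47.7% of all genes. By the rule 2 of them were lower, where 14.6% of all genes were. Emp1, an epithelial membrane protein gene (ENSMUSG00000030208, mm9 chromosome 6, 135312949 to 135333191, plus strand), had 3921 reads (213 CPM) in Bcat_Only and 1569 reads (74.4 CPM) in Met_Bcat, 2.86-fold lower (2.70 to 3.03). By level per length it ranked 3 among the members in Bcat_Only and 11 in Met_Bcat. Errfi1, whose product MIG6 binds and inhibits the EGF receptor (ENSMUSG00000028967, mm9 chromosome 4, 150228028 to 150243001, plus strand), had 2885 reads (157 CPM) and 1289 reads (61.2 CPM), 2.56-fold lower (2.40 to 2.74). Phlda1, a pleckstrin-homology-like protein gene, had 97.9 and 61.9 CPM, 1.58-fold lower (1.47 to 1.70).

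Set beside the promoters shown above, the 5 members with TGACGTCA had log2 ratios below 0, as did 26 of all 40 members, at -2.96 for Dusp1, -1.36 for Errfi1, -0.97 for Maff, -0.69 for Btg2 and -0.47 for Dusp8. Of these only Dusp1 and Errfi1 passed the rule, both as lower, as 14.6% of all genes did. The 3 members with a CArG box had -0.54 for Zfp36, -0.35 for Egr2 and -0.10 for Dusp5, the last with an interval that spans no difference. These values describe the matched members only.

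Few genes of the cascade upstream passed the 2-fold rule. Of 24 measured genes of the ERK cascade, from Egfr and Grb2 through RAS and RAF to the kinases downstream, 0 were higher and 1 was lower by the rule, where 4.42% and 14.6% of all genes were, and the median was 0.07. That 1 gene was Ksr1, a scaffold that holds RAF, MEK and ERK together, at 974 reads (52.9 CPM) in Bcat_Only and 398 reads (18.9 CPM) in Met_Bcat, 2.8-fold lower (2.49 to 3.15). Serum response factor and its ETS and MKL partners, 6 genes, had a median of -0.02 with 0 past the rule, and the 14 genes of the JNK and p38 cascades a median of -0.24 with 0 past it.

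Other genes of the same kinds went both ways. Of 29 further immediate-early genes 3 were higher and 7 lower, where 4.42% and 14.6% of all genes were, with a median of -0.57. Ctgf, a matricellular gene, was 9.42-fold lower (8.60 to 10.3), Socs3, an inhibitor of cytokine signalling, 7.06-fold (6.41 to 7.80) and Cyr61, another matricellular gene, 6.46-fold (5.78 to 7.24). Arc, best known as a neuronal activity gene, had 24 and 339 reads and was 12.3-fold higher (8.16 to 19.5). Fibroblasts express Ctgf and Cyr61, and the fibroblast markers summed to 23166 and 949.6 CPM in the same libraries. The part of fibroblasts in these values was not tested.

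Among 20 further genes that depend on ERK in various cells, 1 was higher and 6 were lower, with a median of -0.33. The shares of all genes, 4.42% higher and 14.6% lower, are the background for this count and those that follow. The potassium channel gene Kcnn4 was 13.6-fold lower (10.0 to 18.8), Spp1, the osteopontin gene, 4.18-fold (3.92 to 4.45) and Plaur, the urokinase receptor gene, 4.42-fold (3.79 to 5.18). Areg, the gene of the EGF receptor ligand amphiregulin, had 20 and 324 reads and was 14.2-fold higher (9.02 to 23.5). Of 11 further AP-1 partners and other bZIP genes, on 12 rows of the table since Atf7 has 2, 4 were lower, among them these, which leukocytes also express: Jdp2 8.43-fold (6.65 to 10.8), Maf 4.67-fold (4.26 to 5.14) and Batf 3.04-fold (2.08 to 4.54). Of 10 further DUSP genes 2 were lower, Dusp18 3.02-fold (2.32 to 3.95) and Dusp3 2.19-fold (2.02 to 2.38). The macrophage markers summed to 1498 and 311 CPM in the same libraries, and their part in these values was not tested.

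**Figure D4:**
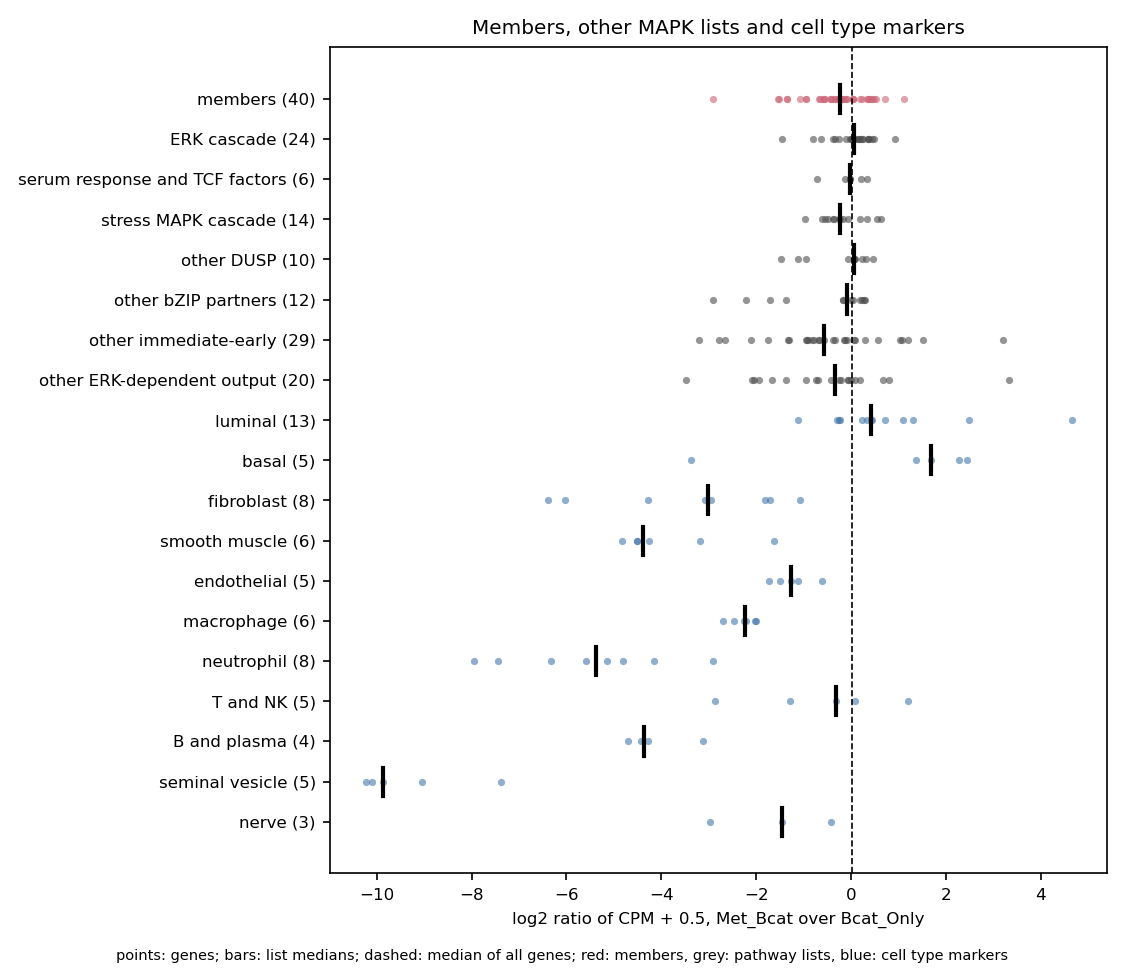
Log2 ratio of CPM plus 0.5, Met_Bcat over Bcat_Only, of the members (red), of other MAPK pathway lists (grey) and of cell type markers (blue), with list medians as bars and the number of genes in brackets. The members spread from -2.91 to 1.13 around a median of -0.24, while the fibroblast and neutrophil markers have medians of -3.01 and -5.37.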

How the data were processed

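The authors deposited raw counts of reads for each gene as whole numbers, with Ensembl identifiers, symbols and mm9 coordinates, per the file headers. TopHat2 version 2, HTSeq, edgeR and mm9 are listed in the submitters' processing notes. The kit was stranded with single-end reads of 51 bases, per the labels' protocols, and the strand setting of the counting is not given in the sources used here. The total exon length per gene is the authors' deposited value. Columns were matched to samples by the sample number in their headings.

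Libraries were scaled by TMM (edgeR 4.0.16, R 4.3.3), with factors of 0.955 for Bcat_Only and 1.05 for Met_Bcat. Ratios carry exact (Clopper-Pearson) 95% intervals conditional on a gene's summed reads (scipy 1.17.1), and the intervals for proportions between members are exact conditional odds ratios. PCR copies cannot be told from separate molecules here, so intervals cover counting error only. The minimum mean level was 1 CPM, and medians use a pseudocount of 0.5 CPM. The intervals and the 2-fold rule were tested on simulated counts with counting error only and with the library sizes taken as known. Such a test cannot cover differences between animals or errors in the scaling.

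The members, lists, pairs and rules were chosen with earlier results of these data known. All 40 members are described, and of each other pathway list at most 4 genes past the 2-fold rule, ranked by the near end of the interval. A gene counted in these lists may not be reported here by name. Hras, Cebpd, Adgre1 and Jchain matched no symbol. Promoter sequences are RefSeq's on GRCm38.p6, their exons from GENCODE, and gene coordinates are the table's, on mm9. Alternatives were other scalings (total counts, upper quartile, DESeq2 1.42.0 size factors, luminal markers), minimum levels, fold rules, pseudocounts and the mean.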

Additional observations from a re-analysis of the deposited data

How the results depend on the processing

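The members' counts of 1 higher and 5 lower were the same with total counts, upper-quartile and DESeq2 size factors. With the median of the luminal markers set to no difference, every log2 ratio moves by -0.43. The members' counts were then 0 higher and 9 lower, the latter adding Btg2, Dusp6, Maff and Spry1, with 376 and 2855 of all genes. The members' median was -0.68 and that of all genes was -0.39. Of all genes past the rule, 76.8% were lower by TMM and 88.4% by this scaling. Atf3, Dusp7, Dusp10, Jun, Jund, Nr4a1, Spred2 and Spred3 then changed sign, and Egr3 fell below the minimum level. Total counts move every log2 ratio by 0.13, with Dusp5, Fosl1 and Ier2 changing sign and a median of -0.11. With a 4-fold rule 0 members were higher and 1, Dusp1, was lower, with 251 and 1086 of all genes. With a minimum of 10 CPM the counts of all genes were 356 and 1226, and Etv1 was no longer considered, leaving 4 lower members. Counting the ratio itself added Spry1, for 6 lower members. The median over members was -0.21 with a pseudocount of 2 CPM, and their mean was -0.32. Depth limits Fosb, Fosl1, Egr3 and Etv1, each with under 100 reads in both libraries. No paired analysis was possible because each genotype has 1 library, and leaving out a library was likewise not possible.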
